A study of Mus musculus with 21 samples.

Results

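A set of 9 genes that steer a cell between glucose and fat as fuel was described, of 22180 genes measured, across sorted cells of the mouse stomach corpus. They were Pdk1, Pdk2, Pdk3 and Pdk4, Lpl, Angptl4, Cpt1a, Ppargc1a and Acadl. Each was taken by name and read from the probe set (the group of array probes for a transcript) that the platform annotation assigns to that gene alone, or from the brighter probe set where there were 2. Pdk4 and Lpl were on the list because earlier results of these data had shown them higher and lower after tamoxifen. Their differences between tamoxifen and control cells are therefore given as descriptions, with no test, while the other 7 members were tested there, and all 9 were tested between populations. The population tests of Pdk4 and Lpl use the same group values as those differences, so the choice of these genes bears on them. All 9 members were measured and no filter on level was applied.

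Cells of the corpus, the acid-secreting part of the stomach, were sorted into 3 populations by green fluorescence from an Lgr5GFP reporter, called high, low and negative. The 3 tamoxifen groups came from mice injected with 0.27 mg of tamoxifen per g of body weight 24 hours before isolation (n = 4 arrays per population). The 3 control groups came from non-treated mice (n = 3 arrays per population), which gives 21 arrays in 6 groups. The labels used here give no strain, age or sex, and a vehicle-injected group was not analysed here, so effects of the drug, of the injection and of the run in which cells were sorted cannot be told apart. The design text calls the arrays technical replicates from individual sorting runs, so p-values measure the spread between these samples, which may be technical. The cells were chosen by Lgr5 fluorescence alone, and each sample is a bulk extract of whatever cells fell in that gate.

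Pyruvate dehydrogenase kinases phosphorylate and switch off the pyruvate dehydrogenase complex, the gate through which carbon from glucose enters the mitochondrial citric acid cycle as acetyl-CoA. Pdk4 is the family member best known for rising in fasting, with glucocorticoids and with fatty acid signals, in muscle, heart and liver. Lipoprotein lipase, from Lpl, frees fatty acids from circulating triglyceride, and Angptl4 encodes a secreted inhibitor of it. Cpt1a links long-chain fatty acids to carnitine for entry into mitochondria, Acadl starts their oxidation, and Ppargc1a encodes a coactivator of mitochondrial and oxidative genes. In the corpus, the acid-secreting parietal cell is the type known for its dense mitochondria.

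Promoter sequence is shown for Pdk4 and Acadl, the intracellular enzymes that were highest after tamoxifen relative to control in high and low cells, and for Cpt1a, whose window held a match to a motif searched. RefSeq windows of 300 bases, from 250 before to 50 after the start site, were found for 7 of the 9 members, with Lpl and Angptl4 not among them. The sequences are those of build GRCm38.p6, 5′ to 3′ on the gene's own strand. Pdk4 lies at chr6:5496229-5496528 on the minus strand, Acadl at chr1:66863260-66863559 on the minus strand and Cpt1a at chr19:3323051-3323350 on the plus strand.
Pdk4: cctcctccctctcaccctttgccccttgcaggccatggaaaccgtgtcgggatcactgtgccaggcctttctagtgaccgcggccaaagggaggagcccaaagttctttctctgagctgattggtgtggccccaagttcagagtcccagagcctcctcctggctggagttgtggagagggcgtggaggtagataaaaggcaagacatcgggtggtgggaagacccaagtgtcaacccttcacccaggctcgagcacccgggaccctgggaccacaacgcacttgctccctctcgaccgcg
Acadl: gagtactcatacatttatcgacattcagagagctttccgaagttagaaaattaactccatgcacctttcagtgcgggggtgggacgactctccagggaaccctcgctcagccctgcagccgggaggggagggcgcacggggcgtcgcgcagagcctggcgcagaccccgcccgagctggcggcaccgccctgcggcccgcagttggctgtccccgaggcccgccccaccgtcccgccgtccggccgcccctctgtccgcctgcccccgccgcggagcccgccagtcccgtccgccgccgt
Cpt1a: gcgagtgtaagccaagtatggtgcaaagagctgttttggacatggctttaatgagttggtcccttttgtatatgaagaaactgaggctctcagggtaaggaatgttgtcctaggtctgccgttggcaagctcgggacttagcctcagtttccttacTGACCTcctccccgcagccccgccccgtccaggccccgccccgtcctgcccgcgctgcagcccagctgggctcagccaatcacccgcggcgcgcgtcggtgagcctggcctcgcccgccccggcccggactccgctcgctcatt
The windows were searched on both strands for 5 motifs. These were the single nuclear receptor element (AGGTCA), a PPAR direct repeat of that element with 1 base between the copies, an estrogen related receptor element that contains it (TNAAGGTCA), a forkhead element (TGTTTAC) and the palindromic glucocorticoid element. The capitals in the Cpt1a window mark a single nuclear receptor element on the opposite strand, upstream of the start site. Of all 32851 RefSeq windows, 16.3% held such an element, beside 1 of these 7 members. The shares for the other motifs were 0.0396% for the PPAR direct repeat, 1.28% for the estrogen related receptor element, 3.65% for the forkhead element and 0.475% for the glucocorticoid element. None of these 4 was in the windows of the 7 members, which says only that these letters are not in these 300 bases.

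Signal was on the log2 scale, where 1 unit is a doubling. Within groups, arrays correlated with each other at 0.944 to 0.991 (Pearson). The 95th percentile of 1105 olfactory receptor genes, which these cells are not known to use, was 4.16 and served as the background level. Lgr5, which drives the reporter, followed the gates, with means of 8.43, 6.70 and 4.59 in tamoxifen high, low and negative cells, and 8.79, 7.56 and 4.41 in control high, low and negative cells. A source label of the control negative samples reads low where their titles read negative, and their Lgr5 level is that of a negative gate. The tamoxifen low cells, at 6.49 to 7.01, did not overlap the control low cells, at 7.48 to 7.71, so the low gates did not hold cells of equal Lgr5 level. Pgc, which encodes the chief cell product pepsinogen C, had means from 13.17 to 13.36 across the groups, close to the highest value in the table, 13.55. Of 9 chief cell genes, all measured, 1 fell in high cells, 2 fell in low cells and none was called in negative cells after tamoxifen by limma (3 at an unadjusted p under 0.05). Against the negative cells, 4 were higher and 1 lower in control high cells and 4 were higher in control low cells. The part of chief cell genes in the population differences below was not tested. Beside each list count, of all genes limma called 2.73%, 8.32% and 2.32% after tamoxifen in high, low and negative cells. Against negative cells it called 12.3% and 5.27% in control high and low cells, and 10.3% and 2.24% in tamoxifen high and low cells. The adipocyte marker Adipoq had means from 2.48 to 2.91, under the background level. Plin1, also on the adipocyte list, had means from 4.14 to 4.5, around that level. Of 7 adipocyte genes 5 were measured, with 2 above background in control high cells, 0 in tamoxifen negative cells and 1 in each other group. Limma called none of the 5 after tamoxifen (0, 1 and 1 at an unadjusted p under 0.05 in high, low and negative cells).

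Pdk4 was higher after tamoxifen in each population, by 16.4-fold in high, 7.82-fold in low and 13.7-fold in negative cells. Pdk4 read 9.80, 8.74, 8.95 and 5.64 in tamoxifen high cells, against 4.11, 4.61 and 4.03 in control high cells. In low cells it read 9.18, 8.97, 7.09 and 8.93 after tamoxifen, against 5.38, 6.01 and 5.34 in controls. The negative cells read 9.47, 9.37, 9.48 and 6.48 after tamoxifen, against 5.04, 4.81 and 4.93 in controls. No tamoxifen array overlapped the controls of its population, but in each population 1 tamoxifen array lay well under the other three. The differences were 4.04 ± 0.76, 2.97 ± 0.76 and 3.78 ± 0.76 (SE) on the log2 scale in high, low and negative cells. In the control high group, 2 of 3 arrays were at or under the background level, so the fold there is set against a signal near the floor of the array. In bulk extracts, fewer cells of a type and less RNA per cell cannot be told apart, for Pdk4 and for every gene below.

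The spread of Pdk4 among tamoxifen arrays was wide, with SDs of 1.82, 0.97 and 1.48 in high, low and negative cells, against 0.31, 0.37 and 0.11 in the controls. Without the lowest array, the difference was 4.92 (30.2-fold) in high cells and 4.52 (22.9-fold) in negative cells. The order of the 3 population differences is not settled by these arrays: high minus negative was 0.26 ± 1.08 (SE) and turned to -0.24 without tamoxifen high replicate 1 and to -0.48 without tamoxifen negative replicate 4. Between populations of the same treatment, no Pdk4 difference passed the test, and in tamoxifen mice their direction rested on single arrays: high against negative ran from -1.16 to 0.46 over the fits without 1 array, low against negative from -0.90 to 0.32 and high against low from -0.76 to 0.62. The largest of these 6 differences was control high against control low, at -1.33 ± 0.82 (SE, adjusted p = 0.67), where the arrays did not overlap. Control high against control negative cells, at -0.68 (adjusted p = 0.74), passed when the fit held only those 2 groups (adjusted p = 0.034). A list of tuft cell genes, 7 of 8 measured, moved beside these treatment differences. The log2 of its summed signal ran from 10.68 to 13.54 in tamoxifen high cells and 13.38 to 14.08 in control high cells, from 8.22 to 9.99 in tamoxifen low cells and 11.67 to 12.87 in control low cells, and from 8.63 to 9.82 in tamoxifen negative cells and 9.84 to 11.05 in control negative cells. In low cells 7 of the 7 fell, and in high and negative cells limma called none (4 and 5 at an unadjusted p under 0.05). The part of tuft cells in the Pdk4 and other differences was not tested.

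**Figure D1:**
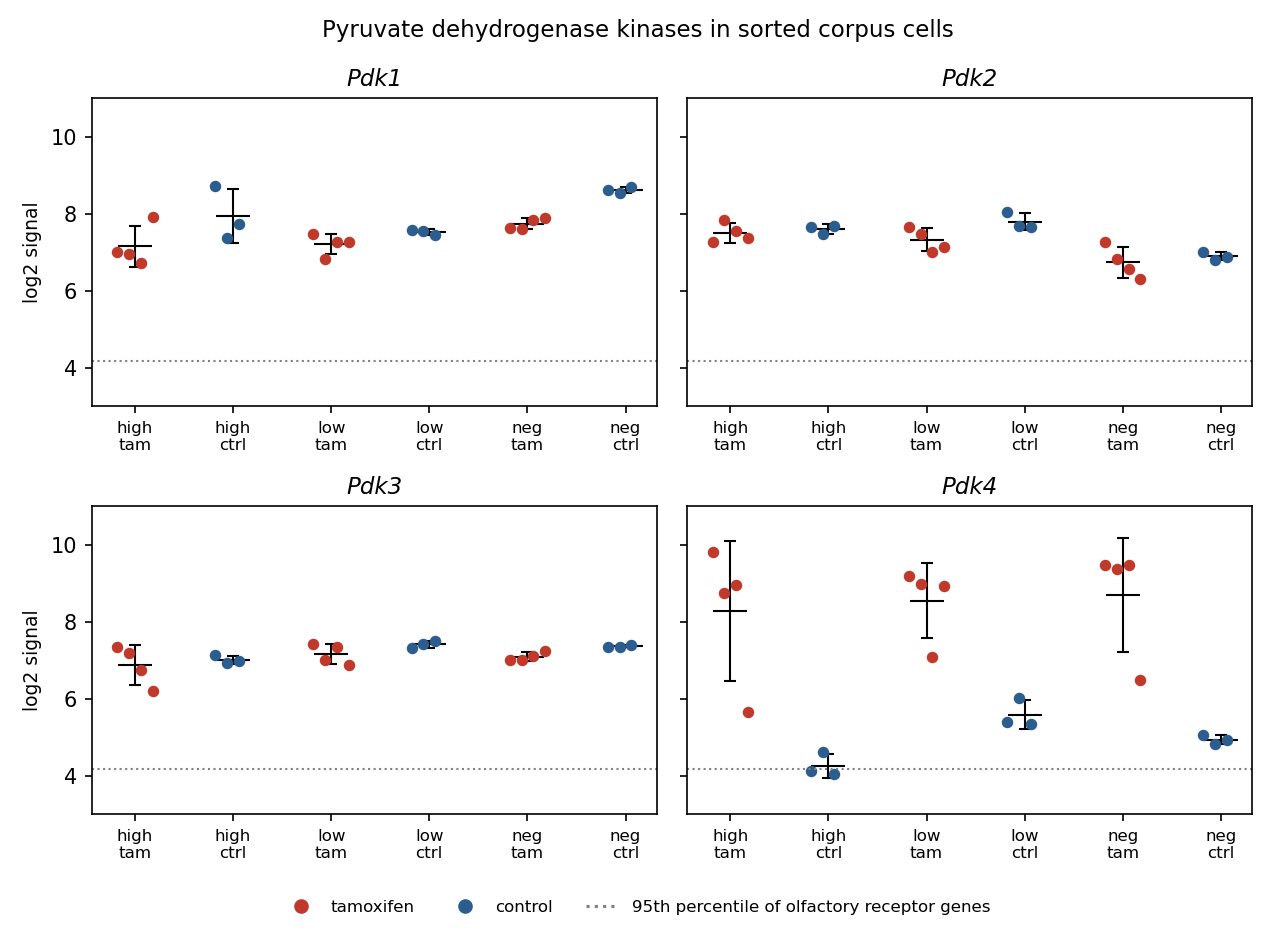
Log2 signal of the 4 pyruvate dehydrogenase kinase genes on each array, with tamoxifen (red) left of control (blue) for high, low and negative cells. Points are arrays, bars are the group mean and SD, and the dotted line is the background level of 4.16; Pdk4 separates the treatments in each population, with 1 low tamoxifen array in each.

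The other 3 kinases gave no call between tamoxifen and control cells in any population. Pdk1, a kinase known as a target of hypoxia signalling, read 7.62, 7.60, 7.82 and 7.89 in tamoxifen negative cells, against 8.60, 8.54 and 8.69 in control negative cells. These arrays did not overlap, and the difference was -0.88 ± 0.27 (SE, adjusted p = 0.10). In high cells Pdk1 read 7.01, 6.95, 6.71 and 7.91 after tamoxifen, against 8.72, 7.37 and 7.72 in controls, a difference of -0.79 ± 0.27 (SE, adjusted p = 0.12) with overlapping arrays. Without tamoxifen high replicate 4, the array lowest in Pdk4 and highest in Pdk1, the Pdk1 difference was -1.05 and its adjusted p was 0.012. In low cells the Pdk1 difference was -0.31 (adjusted p = 0.56). A second, dimmer Pdk1 probe set gave differences of -0.46, -0.23 and -0.43 in high, low and negative cells, all smaller in size than those of the brighter set.

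Pdk2, the most widely expressed of the kinases in mouse tissues, differed by -0.10, -0.47 and -0.15 between tamoxifen and control in high, low and negative cells (adjusted p = 0.86, 0.18 and 0.84). Pdk3 differed by -0.14, -0.25 and -0.27 (adjusted p = 0.78, 0.54 and 0.66). Their 95% intervals were -0.53 to 0.33 for Pdk2 and -0.57 to 0.28 for Pdk3 in high cells. In negative cells Pdk3 read 6.99, 7.0, 7.10 and 7.24 after tamoxifen, against 7.33, 7.35 and 7.39 in controls. These arrays did not overlap, but their difference was within the error of the fit, with a 95% interval from -0.70 to 0.15.

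The kinases differed between populations in another way. Pdk2 was higher in high than in negative cells in control mice, by 0.71 ± 0.22 (SE, adjusted p = 0.038). In tamoxifen mice the high cells were above the negative cells by 0.76 ± 0.19 (SE, adjusted p = 0.012). It was also higher in control low than in control negative cells, by 0.90 ± 0.22 (SE, adjusted p = 0.019). Per array, Pdk2 read 7.65, 7.46 and 7.68 in control high cells and 8.04, 7.68 and 7.64 in control low cells, against 7.0, 6.79 and 6.88 in control negative cells, so both Lgr5 populations lay above the negative one. Pdk1 ran the other way in control mice, at 7.58, 7.54 and 7.44 in low cells, against 8.60, 8.54 and 8.69 in negative cells, a difference of -1.09 ± 0.29 (SE, adjusted p = 0.029). These calls were close to the threshold: leaving out any 1 of the 6 arrays ended the Pdk2 call between control high and negative cells (adjusted p from 0.058 to 0.12) and the Pdk1 call between control low and negative cells (0.069 to 0.11). The Pdk2 call between control low and negative cells was lost without control low replicate 1 or control negative replicate 2 or 3 (0.12, 0.078 and 0.068), and that between tamoxifen high and negative cells without tamoxifen negative replicate 4 (0.052).

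Lpl was lower after tamoxifen in high cells, by 5.57-fold, and in low cells, by 3.86-fold, and differed little in negative cells. Lpl read 4.91, 6.45, 5.72 and 3.63 in tamoxifen high cells, against 6.97, 8.17 and 7.83 in control high cells. In low cells it read 8.02, 7.14, 7.15 and 6.37 after tamoxifen, against 9.31, 9.26 and 8.79 in controls. In negative cells it read 7.13, 6.18, 6.73 and 6.47 after tamoxifen, against 7.07, 6.84 and 6.87 in controls. The groups were apart in high and low cells and overlapped in negative cells. The differences were -2.48 ± 0.47, -1.95 ± 0.47 and -0.30 ± 0.47 (SE) in high, low and negative cells. A dimmer Lpl probe set gave -1.51, -1.66 and -0.08. The difference in high cells less that in negative cells was -2.18 ± 0.66, and the difference in low cells less that in negative cells was -1.65 ± 0.66 (SE). These carry no test because Lpl was chosen for its response.

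Among the populations of control mice, Lpl was highest in low cells, then high, then negative cells, with means of 9.12, 7.65 and 6.93. The control low cells were 4.56-fold above the control negative cells (2.19 ± 0.50, SE, adjusted p = 0.012), while high did not pass the test against negative (0.73, adjusted p = 0.47) or against low (-1.46, adjusted p = 0.18). In tamoxifen mice the high cells were lowest. They were 3.98-fold under the low cells (-1.99 ± 0.43, SE, adjusted p = 0.012) and 2.74-fold under the negative cells (-1.45 ± 0.43, SE, adjusted p = 0.035). The arrays overlapped in both pairs, and 1 of the 4 tamoxifen high arrays, at 3.63, was under background. Neither call held when the fit held only the 2 groups compared (adjusted p = 0.11 and 0.16). The call between control low and negative cells was lost on leaving out control low replicate 1 or 2 or control negative replicate 3 (adjusted p from 0.052 to 0.065), and that between tamoxifen high and low cells without tamoxifen low replicate 1 (0.061). The call against tamoxifen negative cells was lost in 5 of 8 such fits, among them the one without tamoxifen high replicate 4, where the difference was -0.94 (adjusted p = 0.11). These population tests share group values with the tamoxifen differences for which Lpl was chosen, so their p-values are not free of that choice.

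Parietal cell genes moved in the same direction as Lpl. Closest genes were sought, for each member, among 12050 named genes with a mean above the background level, predicted genes left out. Of these, the gene whose level followed Lpl most closely over the 21 arrays was Atp4a, the catalytic subunit of the parietal cell proton pump, with a Pearson r of 0.914. Atp4a averaged 7.90, 10.81 and 8.74 in tamoxifen high, low and negative cells, against 10.82, 12.27 and 10.69 in control high, low and negative cells. All 14 genes of the parietal cell list were measured, and the log2 of their summed linear signal ran from 10.98 to 11.54 in tamoxifen high cells and from 12.09 to 12.44 in control high cells. It ran from 12.20 to 12.92 in tamoxifen low cells and 13.74 to 14.03 in control low cells. In negative cells it ran from 11.79 to 12.61 after tamoxifen and 12.85 to 13.22 in controls. The summed signal was therefore lower after tamoxifen in all 3 populations, negative cells included, where Lpl overlapped. Gene by gene, 3 of the 14 fell in high cells, 6 fell in low cells, and 4 fell and 1 rose in negative cells, with median differences of -0.35, -1.05 and -0.74. Its part in the Lpl result was not tested. The next closest genes to Lpl were Edem1, which acts in disposal of misfolded proteins in the endoplasmic reticulum (r = 0.888), and Slc25a36, a mitochondrial nucleotide carrier (r = 0.873). These correlations were taken over the same 21 arrays, which share treatment and gate, and are descriptions.

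**Figure D2:**
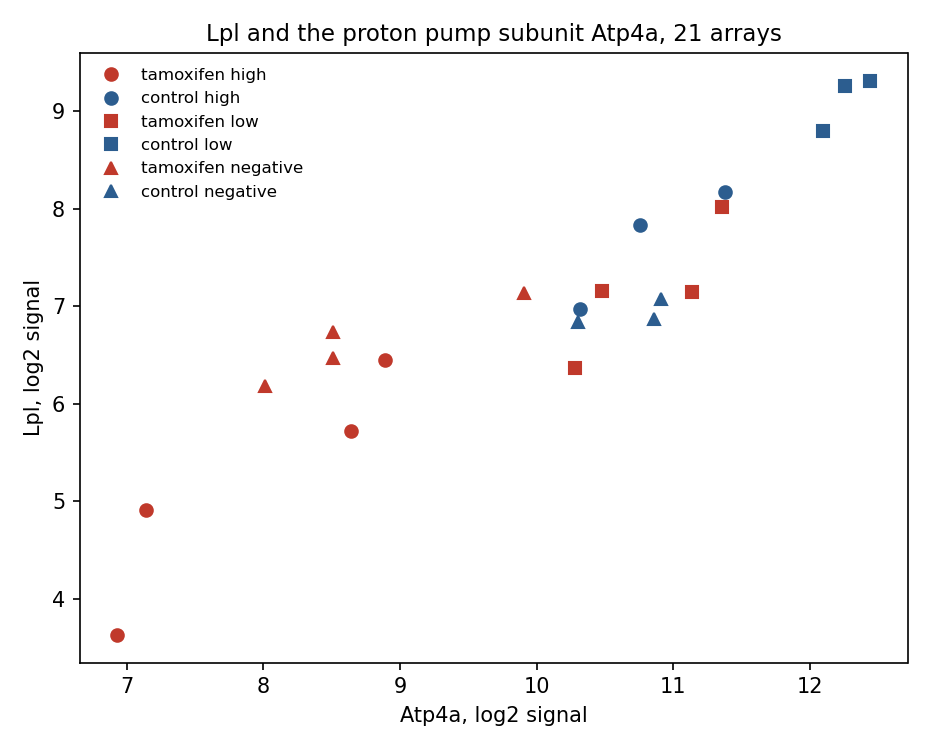
Log2 signal of Lpl against log2 signal of Atp4a on the 21 arrays, coloured by treatment and marked by population. Each point is 1 array; the 4 tamoxifen high arrays lie between 3.63 and 6.45 for Lpl and 6.93 and 8.89 for Atp4a, and the 3 control low arrays between 8.79 and 9.31 and between 12.10 and 12.44.

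Angptl4, the lipase inhibitor, rose with tamoxifen in low and negative cells. It read 5.33, 5.47, 4.55 and 4.70 in tamoxifen low cells, against 4.00, 4.09 and 3.89 in control low cells. Values in negative cells were 6.24, 4.98, 5.17 and 4.91 after tamoxifen, against 3.63, 4.21 and 3.68 in controls, and neither pair of groups overlapped. All 3 control low arrays were at or under the background level, so the rise in low cells is at least 1.81-fold, the mean after tamoxifen set against that level (fitted difference 1.02 ± 0.29, SE, adjusted p = 0.034). In negative cells 2 of 3 control arrays were at or under background, and with those 2 set at that level the rise was 2.21-fold (fitted difference 1.48 ± 0.29, SE, adjusted p = 0.0082). In high cells the values were 5.03, 4.25, 4.01 and 4.37 after tamoxifen, against 3.84, 3.82 and 4.17 in controls, an overlap and a difference of 0.47 ± 0.29 (SE, adjusted p = 0.45). The differences between populations in this response did not pass the test, the widest being -1.01 for high minus negative (adjusted p = 0.49).

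The Angptl4 calls did not all hold when single arrays were left out. In low cells the call was lost in 5 of 7 such fits, without tamoxifen low replicate 1 or 2 or any 1 control (adjusted p from 0.080 to 0.12). In negative cells it was lost without control negative replicate 1 or 3 (0.062 and 0.057). Within tamoxifen mice, Angptl4 was lower in high than in negative cells (-0.91 ± 0.27 on the log2 scale, SE, adjusted p = 0.036), a call that 5 of the 8 leave-one-out fits ended (0.064 to 0.12). The genes closest to Angptl4 over the 21 arrays were Icam1, an adhesion molecule for leukocytes (r = 0.908), Adam8, a metalloprotease (r = 0.886), and Plaur, the urokinase receptor (r = 0.885).

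A list of 11 macrophage and other immune genes, all measured, was set beside Angptl4. The log2 of its summed signal ran from 9.07 to 9.65 in tamoxifen low cells and 8.0 to 8.56 in control low cells. In negative cells it ran from 8.75 to 10.02 after tamoxifen and 7.88 to 8.41 in controls. In high cells it ran from 8.11 to 9.53 after tamoxifen and 8.95 to 10.09 in controls. Its members did not move together in low cells: Cd14 and Cd68 rose by 3.66 and 2.79 (adjusted p = 3.9e-06 and 6.8e-07), Ptprc fell by 2.67 (adjusted p = 0.021, with 3 of 4 tamoxifen arrays at or under background and 5.16-fold lower with those set at that level), and the macrophage marker Adgre1 averaged 3.74 after tamoxifen and 3.88 in controls, under the background level. The part of immune cells in the Angptl4 result was not tested.

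**Figure D3:**
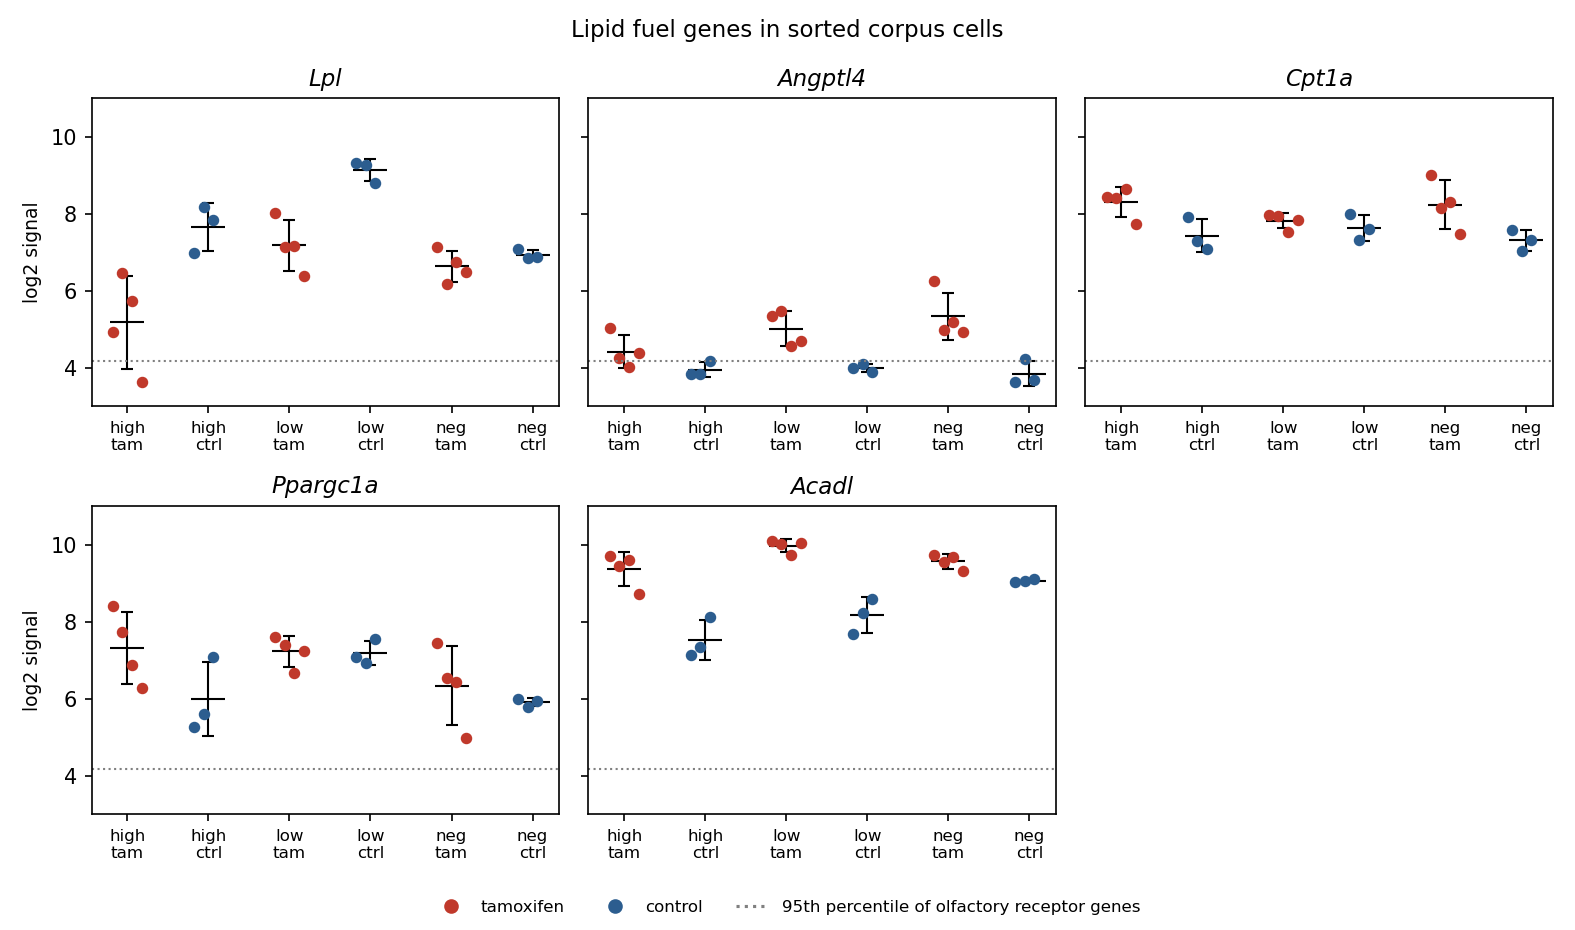
Log2 signal of Lpl, Angptl4, Cpt1a, Ppargc1a and Acadl on each array, with tamoxifen (red) left of control (blue) for high, low and negative cells. Points are arrays, bars are the group mean and SD, and the dotted line is the background level of 4.16; Lpl is lower and Acadl higher after tamoxifen in high and low cells.

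Acadl, the long-chain acyl-CoA dehydrogenase, rose with tamoxifen in high and low cells, by 3.59-fold and 3.48-fold. It read 9.69, 9.45, 9.61 and 8.71 in tamoxifen high cells, against 7.13, 7.33 and 8.11 in control high cells (1.84 ± 0.25, SE, adjusted p = 0.00039). In low cells it read 10.08, 10.01, 9.72 and 10.05 after tamoxifen, against 7.68, 8.23 and 8.59 in controls (1.80 ± 0.25, SE, adjusted p = 0.00012). In negative cells it read 9.73, 9.54, 9.67 and 9.30 after tamoxifen, against 9.02, 9.06 and 9.10 in controls. These did not overlap either, but the difference of 0.50 ± 0.25 (SE) did not pass the test (adjusted p = 0.42). Both calls held in each fit that left out 1 array, and the call in high cells was lost when the fit held only those 2 groups (adjusted p = 0.10).

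Acadl differed between the control populations as well. Control high cells were 2.91-fold under control negative cells (-1.54 ± 0.26, SE, adjusted p = 0.00042), and control low cells lay 0.90 under them on the log2 scale (-0.90 ± 0.26, SE, adjusted p = 0.052). The low against negative difference passed without the dimmest genes (adjusted p = 0.044) and with the trend and robust options of limma (0.046). It also passed with the number in the sample titles as a random block (0.036), with only the groups compared (0.038) and without control low replicate 3 (0.022). Genes of other cell types moved beside these differences. Of 7 surface pit cell genes 6 were measured, and all 6 were lower in control high and in control low than in control negative cells, with medians of -4.17 and -3.34. The log2 of their summed signal ran from 10.27 to 11.71 in control high, 11.11 to 11.91 in control low and 14.72 to 14.78 in control negative cells. Of 8 endocrine cell genes, 6 were lower in control high than in control negative cells (median -3.02), and limma called 0 between control low and control negative cells (0 at an unadjusted p under 0.05, median 0.33). Their summed signal ran from 9.21 to 9.63 in control high, 12.15 to 13.39 in control low and 12.32 to 12.68 in control negative cells. In tamoxifen mice, where no Acadl pair passed, 6 of 6 pit and 8 of 8 endocrine genes were lower in high than in negative cells (medians -4.03 and -4.01). In tamoxifen low against negative cells, 3 pit and 6 endocrine genes were lower (medians -2.06 and -3.59). Between tamoxifen and control low cells, 2 pit genes rose (median 1.32) and 2 endocrine genes fell (median -1.88). Between tamoxifen and control high cells limma called none of either list (medians -0.06 and 0.37, 1 and 0 at an unadjusted p under 0.05). In negative cells, 2 endocrine genes rose (7 at an unadjusted p under 0.05, median 2.14) and no pit gene was called (0, median -0.57). Of 6 mucous neck cell genes, 2 fell in low and 3 in negative cells (medians -1.32 and -1.05). In high cells limma called none of them (1 at an unadjusted p under 0.05, median -0.29). The part of these cell types in the Acadl and other differences was not tested. After tamoxifen the means were 9.37, 9.97 and 9.56 in high, low and negative cells, and no pair passed the test. The tamoxifen difference was larger in high than in negative cells by 1.34 ± 0.35 (SE, adjusted p = 0.13) and larger in low than in negative cells by 1.30 ± 0.35 (SE, adjusted p = 0.098). Neither passed over all genes, although each was called when certain single arrays were left out: without tamoxifen high replicate 4 or control high replicate 3 (adjusted p = 0.026 and 0.040), and without control low replicate 3 (0.049). With only the groups compared, the low minus negative difference also passed (0.024). The genes nearest to Acadl over the 21 arrays were Dmbt1, a secreted mucosal scavenger receptor (r = 0.967), Mt1, a metallothionein (r = 0.955), and Bspry (r = 0.951).

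Cpt1a and Ppargc1a gave no call between tamoxifen and control cells. Cpt1a read 8.42, 8.41, 8.64 and 7.73 in tamoxifen high cells, against 7.90, 7.29 and 7.09 in control high cells (0.87 ± 0.29, SE, adjusted p = 0.11). In negative cells it read 9.0, 8.15, 8.30 and 7.46 after tamoxifen, against 7.58, 7.03 and 7.30 in controls (0.92 ± 0.29, SE, adjusted p = 0.11). In both pairs a single tamoxifen array overlapped the controls. Without that array, the differences were 1.06 (adjusted p = 0.030) and 1.18 (adjusted p = 0.014). In low cells the Cpt1a difference was 0.19 (adjusted p = 0.77), with a 95% interval from -0.40 to 0.79. The genes closest to Cpt1a over the 21 arrays were Vps37b (r = 0.910), Hs6st1 (r = 0.906) and Pnpla2, which encodes adipose triglyceride lipase (r = 0.894).

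Ppargc1a varied widely within some groups, with SDs of 0.95 in tamoxifen high, 1.02 in tamoxifen negative and 0.97 in control high cells. It read 8.40, 7.74, 6.86 and 6.26 in tamoxifen high cells, against 5.26, 5.61 and 7.09 in control high cells, which overlapped (1.33 ± 0.50, SE, adjusted p = 0.17). For negative cells the values were 7.43, 6.53, 6.42 and 4.97 after tamoxifen, against 6.0, 5.79 and 5.94 in controls (0.43, adjusted p = 0.81). In low cells the means were 7.22 after tamoxifen and 7.19 in controls, a difference of 0.04 with a 95% interval from -1.01 to 1.08. Without tamoxifen high replicate 4 the difference in high cells was 1.68 (adjusted p = 0.046). In control mice the low cells, at 7.09, 6.93 and 7.54, lay above the negative cells, at 6.0, 5.79 and 5.94, by 1.28 ± 0.54 (SE, adjusted p = 0.23), which passed with only those 2 groups in the fit (adjusted p = 0.0048).

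Over the 7 tested members, limma called 1 in high cells (Acadl), where 2.73% of all genes were called. In low cells it called 2 (Angptl4 and Acadl), against 8.32% of all genes. For negative cells the count was 1 (Angptl4), against 2.32% of all genes. These were all higher after tamoxifen. At an unadjusted p under 0.05, 4, 3 and 3 members passed in high, low and negative cells, of which 1 in each was lower, Pdk1 in high and negative cells and Pdk2 in low cells. The median difference of the 7 was 0.47, 0.04 and 0.43 in high, low and negative cells, beside 0.001, 0.008 and -0.003 for all genes. None of the 7 passed in the 3 comparisons of the tamoxifen difference between populations, where 0.248%, 0.839% and 0.0271% of all genes were called, and 2, 1 and 0 had an unadjusted p under 0.05.

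Between populations, all 9 members entered. In control mice, 2 were called between high and negative cells (12.3% of all genes), 3 between low and negative cells (5.27%) and 0 between high and low cells (1.34%, with 3 members at an unadjusted p under 0.05). In tamoxifen mice, 3 were called between high and negative cells (10.3% of all genes), 0 between low and negative cells (2.24%, with 2 members at an unadjusted p under 0.05) and 1 between high and low cells (3.22%). Lpl, chosen for its response, was among those called between control low and negative cells and between tamoxifen high and negative cells. It was the 1 called between tamoxifen high and low cells.

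**Figure D4:**
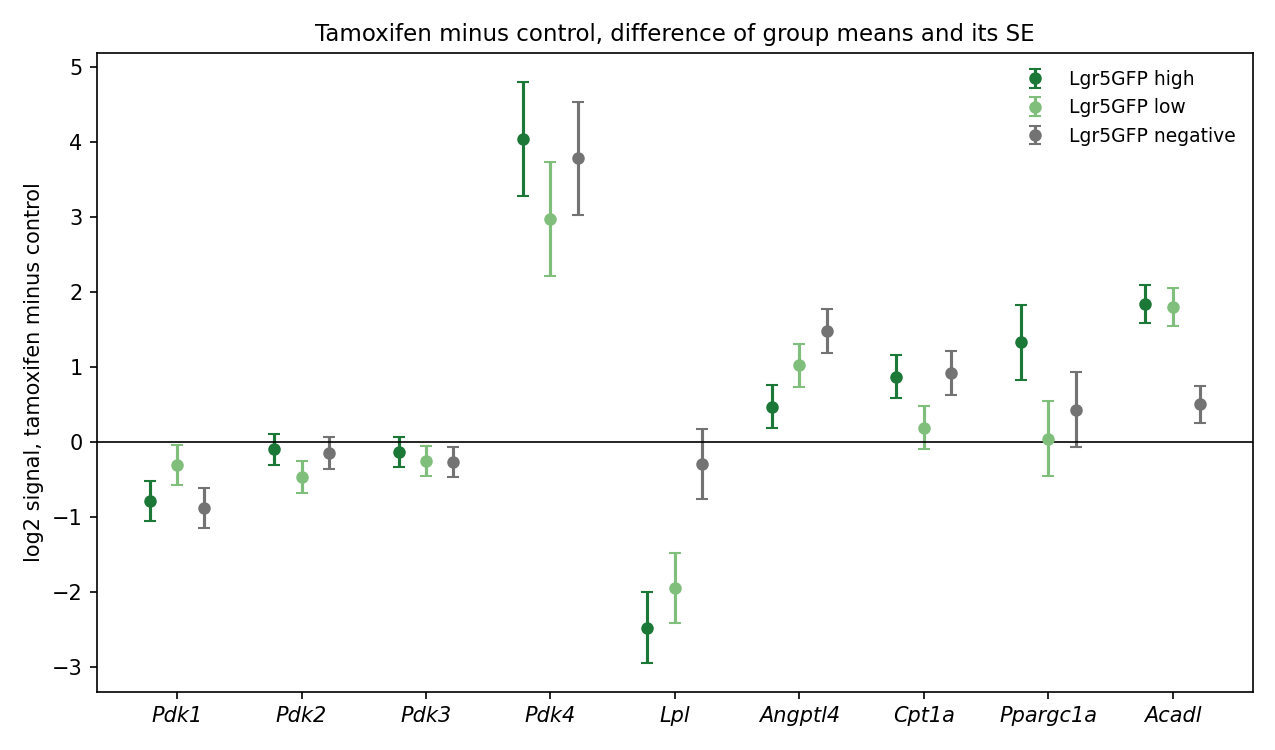
Difference in log2 signal, tamoxifen minus control, for each of the 9 genes in high (dark green), low (light green) and negative (grey) cells. Points are differences of group means and bars their SE from the limma fit; Pdk4 stands at 4.04, 2.97 and 3.78 and Lpl at -2.48, -1.95 and -0.30, and both were chosen for these differences.

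Some other genes of pyruvate use passed the test after tamoxifen. For this list and those that follow, the shares of all genes called were 2.73%, 8.32% and 2.32% in high, low and negative cells. Of 10 measured members of the pyruvate dehydrogenase complex and its carrier, 1 rose in high cells, 1 rose and 1 fell in low cells and none was called in negative cells by the same limma fit (2 at an unadjusted p under 0.05). The riser was Pdp1, the phosphatase that undoes the action of the kinases, at 0.92 in high cells (adjusted p = 0.025) and 1.08 in low cells (adjusted p = 0.0031). The call in high cells was lost in 4 of 7 leave-one-out fits, up to an adjusted p of 0.14. Dld, the dihydrolipoamide dehydrogenase subunit, fell by 0.68 in low cells (adjusted p = 0.006). The list's median difference was 0.13, -0.33 and -0.15 in high, low and negative cells. Of 16 measured glycolysis and lactate genes, 0 were called in high cells (3 at an unadjusted p under 0.05) and 1 fell in each of the other 2 populations: Ldhb, the lactate dehydrogenase subunit that favours making pyruvate from lactate, fell by 1.11 in low cells (adjusted p = 0.00055) and by 1.24 in negative cells (adjusted p = 0.00061). Of 12 measured hypoxia responsive genes, the 1 call was P4ha1, a collagen prolyl hydroxylase, which fell by 0.86 in high cells (adjusted p = 0.048, lost in 6 of 7 leave-one-out fits), with 2 and 4 of the list at an unadjusted p under 0.05 in low and negative cells.

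The fatty acid oxidation genes other than the members had medians near that of all genes after tamoxifen. Of 20 measured, 0 were called in high cells (5 at an unadjusted p under 0.05), 3 rose in low cells and 1 fell in negative cells, with median differences of -0.01, -0.08 and -0.03. In low cells Eci2, an enoyl-CoA isomerase, rose by 1.12 (adjusted p = 0.023), Acads, the short-chain relative of Acadl, by 0.72 (adjusted p = 0.026) and Cpt2, the inner-membrane partner of Cpt1a, by 0.52 (adjusted p = 0.037). Decr1, a dienoyl-CoA reductase, fell by 0.68 in negative cells (adjusted p = 0.035). The Eci2, Acads and Decr1 calls were lost in 5, 4 and 6 of 7 leave-one-out fits. The Cpt2 call was not examined in such fits. In control mice, 7 of the 20 were lower and 1 higher in high than in negative cells, with a median of -0.49 beside 0.04 for all genes, the side on which Acadl lay.

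Among partners of lipoprotein lipase and genes of lipid uptake, 17 were measured, and 1 fell in high cells, 3 fell in low cells and 1 rose in negative cells. Furin, a protease known to cleave the lipase and its inhibitors, fell by 1.77 in high cells (adjusted p = 0.024) and fell by 2.66 in low cells (adjusted p = 0.00034). Cd36, a fatty acid transporter, fell by 1.92 in low cells (adjusted p = 0.0065), and Sel1l, which is needed for the lipase to leave the endoplasmic reticulum, by 0.96 (adjusted p = 0.010). Fabp4, a fatty acid binding protein of fat cells and macrophages, rose at least 4.13-fold in negative cells (adjusted p = 0.00063), with means of 6.21 after tamoxifen and 2.70 in controls, where all 3 arrays were under background. Of 15 lipid droplet and lipolysis genes, 2 rose in high cells, 3 rose in low cells and none was called in negative cells (3 at an unadjusted p under 0.05). They were Dgat1, which makes triglyceride, at 0.84 (adjusted p = 0.041), and Lipe, hormone-sensitive lipase, at 1.15 (adjusted p = 0.047), in high cells. In low cells they were the droplet coat genes Plin2, at 1.46 (adjusted p = 0.0041), and Plin3, at 1.19 (adjusted p = 0.045), and the lipase activator Abhd5, at 0.89 (adjusted p = 0.041). The Dgat1 call was lost in 5 of 7 leave-one-out fits and the Furin call in high cells in 4 of 7. The calls of Sel1l, Lipe, Plin3 and Abhd5 were not examined in such fits.

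Regulators and known targets were mixed. Of 17 nuclear receptor and coactivator genes, 0 were called in high cells (4 at an unadjusted p under 0.05), 1 rose and 1 fell in low cells and 1 fell in negative cells. Esrrg, an estrogen related receptor known in parietal cells and heart, fell by 1.34 in low cells (adjusted p = 0.0028) and by 1.39 in negative cells (adjusted p = 0.0062), where 1 of 7 leave-one-out fits ended the call (adjusted p = 0.057). Pparg rose by 1.00 in low cells (adjusted p = 0.047), a call that 6 of 7 leave-one-out fits ended. Of 10 measured PPAR targets, 1 rose in high and in low cells, the acyl-CoA thioesterase Acot1, at 2.05 (adjusted p = 0.0042) and 1.61 (adjusted p = 0.0079), and 0 were called in negative cells (4 at an unadjusted p under 0.05). Acot1 has a near-identical neighbour, Acot2, so its signal is uncertain.

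Of 19 glucocorticoid and FOXO responsive genes, 3 rose and 1 fell in high cells, 2 rose and 1 fell in low cells and 3 rose in negative cells. The list's medians were 0.53, 0.49 and 0.48 in high, low and negative cells, beside all-gene medians of 0.001, 0.008 and -0.003. Mt1 rose by 2.26 in high cells (adjusted p = 0.0028) and 1.55 in low cells (adjusted p = 0.014), and Cebpd, a transcription factor of acute responses, by 1.41 in low cells (adjusted p = 0.010). In low cells the Mt1 call was lost in 2 of 7 leave-one-out fits (adjusted p up to 0.078) and the Cebpd call in 1 of 7 (0.051). Cited2, a transcriptional co-regulator, fell by 2.40 in high cells (adjusted p = 0.00032) and fell by 2.34 in low cells (adjusted p = 9.5e-05). The 3 genes called in negative cells, named after their values were seen, were Fkbp5 at 1.86 (adjusted p = 0.041), Per1 at 1.52 (adjusted p = 0.034) and Zbtb16 at 1.69 (adjusted p = 0.020). In high cells Bcl6, a transcriptional repressor, rose by 1.89 (adjusted p = 0.033) and Mt2, a second metallothionein, by 2.21 (adjusted p = 0.020). The calls of Fkbp5, Per1, Zbtb16, Bcl6 and Mt2 were not examined in leave-one-out fits.

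The genes closest to Pdk4 over the 21 arrays were Socs3, an inhibitor of cytokine signalling (r = 0.939), Ace, angiotensin-converting enzyme (r = 0.938), and Bcl6 (r = 0.924). These arrays share treatment and gate, and the correlations are descriptions. For the other kinases the closest genes were Spi1 for Pdk1 (r = 0.827), Tcn2 for Pdk2 (r = 0.927) and Sucla2, a subunit of a citric acid cycle enzyme, for Pdk3 (r = 0.847). For Ppargc1a it was Slc12a2, the sodium, potassium and chloride cotransporter (r = 0.900).

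The arrays lowest in Pdk4 shared further features, described after their values were seen. They were tamoxifen high replicate 4, low replicate 3 and negative replicate 4. Each was also the lowest of its group in Cpt1a (7.73, 7.53 and 7.46), Ppargc1a (6.26, 6.65 and 4.97) and Acadl (8.71, 9.72 and 9.30). So it was in the 3 genes closest to Pdk4, but these were picked for following Pdk4 over the same arrays. Pdk1 was instead the highest of its group on these arrays in high and negative cells, at 7.91 and 7.89. Pdk3 was lowest there only in high cells, and Pdk2 and Angptl4 only in low and negative cells. Over all genes, 5.70% (1265 of 22180) were lowest on these same 3 arrays. Lgr5 read 8.53, 6.75 and 4.58 on them, inside the range of the other arrays of each group. Lpl was lowest on this array in high cells, at 3.63, but not in low or negative cells, at 7.15 and 6.47.

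**Figure D5:**
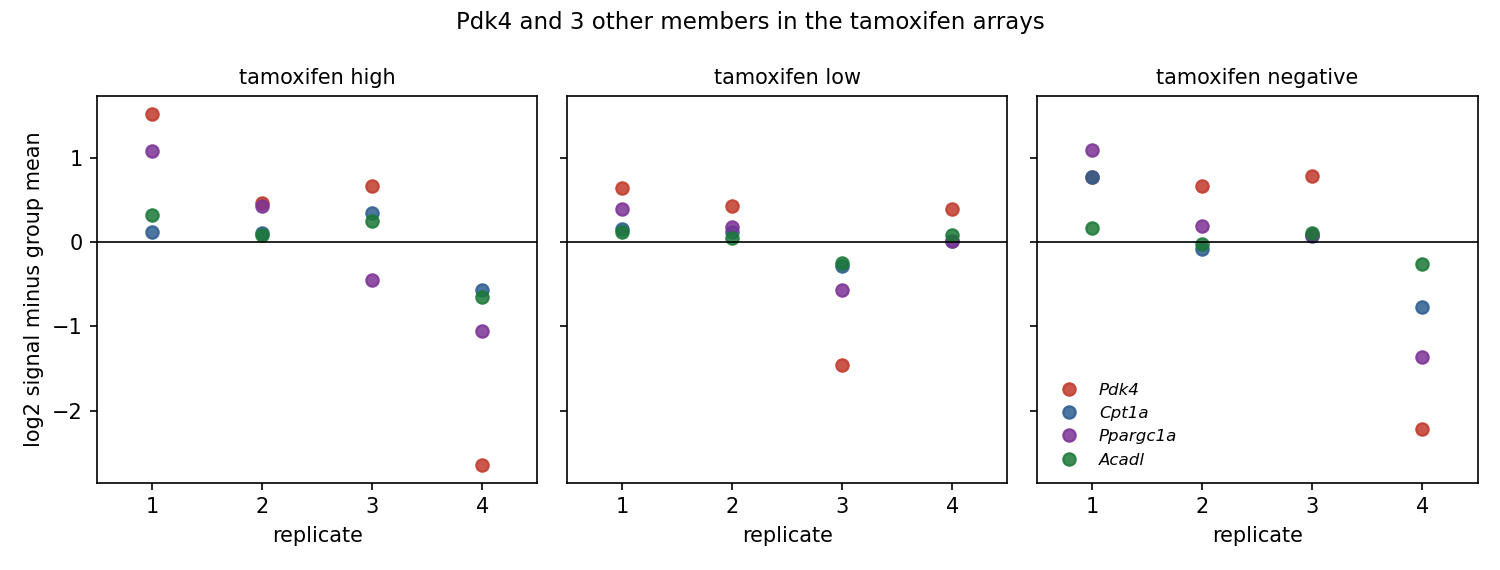
Log2 signal of Pdk4, Cpt1a, Ppargc1a and Acadl on each tamoxifen array, less the mean of its group, by population. The array lowest in Pdk4 is replicate 4 in high, 3 in low and 4 in negative cells, and it is also the lowest of its group in the other 3 genes shown. The members not shown did not all follow.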

How the data were processed

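RNA of 21 sorted samples was amplified to biotin-labelled cDNA and read on 1-colour arrays. The deposited table holds the authors' log2 values for 41345 probe sets. They used oligo and RMA, together with limma 3.26.8 under R 3.2.3, per the submitters' processing notes, which give no order. The values run from 0.958 to 13.55, and array medians from 3.95 to 4.25. Of the probe sets, 23521 are annotated to 1 gene, 1814 to several and 16010 are not listed. Gene numbers gave a current symbol to 23328 probe sets, and the brightest probe set by mean over the 21 arrays stood for each of 22180 genes. The number of arrays limits the precision.

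From these values, limma 3.58.1 in R 4.3.3 fitted 6 group means without a block (15 residual and 5.27 prior degrees of freedom). Tests were two-sided and adjusted by Benjamini-Hochberg over all genes, and a gene was called at an adjusted p under 0.05. Other settings covered normalization, probe sets, dim genes, eBayes options, the samples in the fit, blocks and leaving out each array.

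The members and gene lists were chosen with earlier results of these data known. Besides the members, the text names up to 2 risers and 2 fallers of each pathway list by adjusted p, the 3 genes nearest to a member by Pearson r among 12050 candidates, and markers that move with a result. Cpt2, Sel1l, Lipe, Plin3, Abhd5, Bcl6, Mt2, Fkbp5, Per1, Zbtb16, Lgr5, Pgc, Adipoq and Plin1 were named after their values were seen. The erythroid list had no measured gene.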

Additional observations from a re-analysis of the deposited data

Results flagged for a closer look

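Each of the 9 members was examined in the 3 tamoxifen groups of 4 arrays (27 groups in all) for an array standing apart by Dixon's criterion, and 2 groups passed, both for Pdk4. Chance alone flags about 1 group in 20. In tamoxifen low cells, replicate 3 read 7.09 on the log2 scale and the nearest other array 8.93, a gap of 0.881 of the group's range, above the critical value for 4 arrays. In tamoxifen negative cells, replicate 4 read 6.48 and the nearest other array 9.37, a gap of 0.961 of the range. These 2 samples carry the same number in their titles. The high sample with that number read 8.95 in Pdk4. Tamoxifen high replicate 4, at 5.64, carries the title number of tamoxifen low replicate 4, which read 8.93. The labels do not define this number, and its part in these values was not tested.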

How the results depend on the processing

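Of 1782 values of single members under other settings, 31 newly passed the threshold and 45 no longer passed. Another 65 values, from 24 differences, turned direction, none of them called (lowest adjusted p 0.65). The remaining 1641 were counted as unchanged. For the untested Pdk4 and Lpl differences, unchanged meant a shift under the residual SD of the fit, with no threshold. Turns of their tamoxifen effect between populations, such as that of Pdk4 for high minus negative, were therefore counted as unchanged. With cyclic loess, Ppargc1a in low cells (tamoxifen minus control) turned to -0.13, Pdk1 in tamoxifen high against low to 0.048 (0.092 with the mean of its probe sets) and Pdk3 for low minus negative to -0.077. Without 1 array, the tamoxifen difference ran from -0.30 to 0.083 for Pdk3 in high cells and -0.094 to 0.23 for Ppargc1a in low cells. In control mice, high against negative ran from -0.11 to 0.29 for Cpt1a, -0.0091 to 0.29 for Angptl4 and -0.47 to 0.44 for Ppargc1a, and high against low from -0.16 to 0.015 for Angptl4. In tamoxifen mice, high against negative ran from -1.16 to 0.46 for Pdk4, -0.18 to 0.33 for Cpt1a, -0.38 to 0.0086 for Pdk3 and -0.30 to 0.021 for Acadl, low against negative from -0.90 to 0.32 for Pdk4 and -0.0064 to 0.17 for Pdk3, and high against low from -0.32 to 0.08 for Pdk1, -0.27 to 0.44 for Ppargc1a and -0.76 to 0.62 for Pdk4. The high minus negative effect ran from -0.20 to 0.48 for Pdk1, -0.31 to 0.21 for Cpt1a, -0.030 to 0.36 for Pdk3 and -0.10 to 0.22 for Pdk2, low minus negative from -0.055 to 0.12 for Pdk3, and high minus low from -0.058 to 0.33 for Pdk3 and -0.17 to 0.34 for Acadl. Counts of called members over the fits without 1 array ran from 1 to 4 (1 in the full fit) for tamoxifen against control in high cells, 1 to 2 (2) in low cells and 0 to 2 (1) in negative cells. For high against negative, low against negative and high against low they ran from 1 to 2 (2), 0 to 3 (3) and 0 to 0 (0) in control mice and from 1 to 3 (3), 0 to 1 (0) and 0 to 1 (1) in tamoxifen mice. For the differences of the tamoxifen effect between populations they ran from 0 to 1 (0) for high minus negative and for low minus negative, and stayed at 0 for high minus low. With only the groups compared in the fit, the count was 0 for tamoxifen in high cells, 2 in negative cells, 5 for control low against negative, 0 for tamoxifen high against negative, 0 for tamoxifen high against low and 1 for low minus negative. Cyclic loess gave Pdk2 a difference of -0.65 in low cells (adjusted p = 0.026) and ended the Pdk1 call between control low and negative cells (0.084). The cause of these changes was not tested.

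Samples with the same title number did not all deviate together. In control mice, 8 of 9 such pairs correlated over 0.1 (0.09 to 0.32) and the 18 other pairs ran from -0.27 to 0.03, so each control sample correlated best with its own number, a hint from the data and not the design. Deviations from a group mean cancel within the group, so positive values in some pairs push the other pairs negative. The contrast between the sets of pairs is therefore partly built in. In tamoxifen mice 3 of 10 such pairs correlated over 0.1 (-0.16 to 0.41), beside 13 of the 38 other pairs (-0.28 to 0.34). The replicate number of the labels follows the title number only within control mice. It joins tamoxifen negative samples to high and low samples, and tamoxifen to control samples, whose title numbers differ. The labels give no basis for it as a block across treatments. With the replicate number of the labels as a replicate block, 3 members were called in high cells and 3 in negative cells, adding Pdk1 and Cpt1a to each, Acadl passed between control low and negative cells (adjusted p = 0.038), and genes called numbered 1128 in place of 606 and 845 in place of 515, and 11 in place of 6 for the high minus low effect. With the title number as a replicate block, 5 members were called between control low and negative cells, Acadl (adjusted p = 0.026) and Ppargc1a (0.030) among them, 2 between tamoxifen low and negative cells, Pdk2 (0.024) and Ppargc1a (0.028), and 1 for low minus negative. Ppargc1a passed between tamoxifen high and negative cells (0.0068), and Lpl and Angptl4 lost their calls between tamoxifen high and negative cells (adjusted p = 0.14 and 0.13). With this block Pdk4 turned to 0.21 and 0.47 in tamoxifen high and low against negative cells and Angptl4 to 0.053 in tamoxifen low against negative cells, Pdk1 to -0.089 and Cpt1a to 0.30 for high minus negative and Ppargc1a to 0.14 for low minus negative. As a random block it changed 55 genes to 84 for high minus negative and 6 to 13 for high minus low.

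Over all genes, the fits with only the groups compared called 12 in place of 606 for tamoxifen in high cells, 1807 in place of 1168 for control low against negative, 147 in place of 297 for control high against low, 938 in place of 2283 for tamoxifen high against negative, 245 in place of 715 for tamoxifen high against low, 16 in place of 55 for high minus negative and 291 in place of 186 for low minus negative. Leaving out single arrays moved the counts to between 215 (without control high replicate 1) and 1702 (without tamoxifen high replicate 4) in high cells, 990 and 1715 in low cells (1846 in the full fit), and 176 (without control negative replicate 1) and 883 (without tamoxifen negative replicate 4) in negative cells. Of 25 pathway calls named by rule, 14 were kept in each fit without 1 array. Members near the background level, Angptl4 above all, are limited by the signal of the array.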
